A study of Mus musculus with 6 samples.

Results

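Ribosome biogenesis genes encode the proteins that transcribe, modify and process ribosomal RNA and assemble it with ribosomal proteins. A list of 44 such genes was drawn up by their known function, with earlier results of these data known. It was looked up by symbol in the read counts of 6 bulk RNA-seq libraries from mouse iGMPs. Of the 44 genes, 43 were among the 34199 gene symbols counted. All 43 passed the filter on low counts, which kept 12460 genes. Noc2l was not analysed here. iGMPs are granulocyte-macrophage progenitors from C57Bl/6 bone marrow that carry the Lys-GFP reporter and are immortalised by HOXA9 fused to the estradiol-binding domain of a mutant estrogen receptor, so that the fusion protein is active only with estradiol. Every group carried the reporter and the fusion, grew in medium with stem cell factor and was harvested 24 h after its treatment began. CAF-1 OFF cells were given 500 µM IPTG to induce a hairpin RNA that targets Chaf1b, which belongs to the CAF-1 complex that loads histones onto new DNA, with estradiol kept at 150 ng/ml. The control also received IPTG and estradiol. In HOXA9 OFF, estradiol was washed out, and the labels do not say whether IPTG was present. Each group had 2 libraries. The hairpin lines are clones, and which clone gave which library was not stated, so differences between clones and between treatments cannot be told apart. Nothing in the labels says that the 2 libraries of a group came from separate cultures, so p-values measure only the spread between these libraries.

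Ribosome production starts in the nucleolus, where RNA polymerase I transcribes a long precursor of ribosomal RNA. Small nucleolar RNAs with their proteins (snoRNPs) guide its chemical modification, a large particle called the small subunit processome folds and cuts its first part, and separate sets of factors build the large subunit. The pathway is among the costliest of a growing cell, is a classical target of the transcription factor MYC, and is known to be high in myeloid progenitors and to decline as they mature.

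Gene counts ranged from 16773560 to 25170898 per library, and the 43 genes together held between 126575 and 306206 counts in a library. Chaf1b, the target of the hairpin, stood at 90.0 and 105 CPM in control (counts divided by the library size after correction for composition), at 17.8 and 12.1 CPM in CAF-1 OFF and at 64.6 and 61.4 CPM in HOXA9 OFF. It fell in both against control (FDR 0.0198 and 0.0396 by edgeR). Markers of granulocyte-macrophage progenitors were abundant in every library, with a summed level of 11952 to 17721 CPM over 8 genes. Of 5 erythroid markers the summed level was at most 4.88 CPM, and of 4 lymphoid markers at most 7.69 CPM, in every library.

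The question put to the data was whether the ribosome biogenesis genes changed at the first time point after loss of CAF-1 or of HOXA9 activity. In HOXA9 OFF, 24 of the 43 genes fell and none rose. The call required a difference of 1.5-fold or more together with a false discovery rate (FDR) under 0.05 in the quasi-likelihood test of edgeR, adjusted over all 12460 genes. By the same rule 8.97% of all genes fell and 13% rose. With no minimum on the fold change, 32 of the 43 were lower at an FDR under 0.05, against 13.8% of all genes. In 41 of the 43, both HOXA9 OFF libraries lay below both controls, which was so for 35.9% of all genes. The median log2 fold change over the 43 was -0.64 (range -1.01 to 0.02), and over all genes tested it was 0.00. The decline was moderate in size and spread over most of the list, and genes that fell were between 1.52 and 2.02 times lower than in control. When each of the 6 libraries was left out in turn, Ddx21, Mrto4, Nip7, Noc3l, Nop14 and Wdr75 lost their call without 1 or another library of control or HOXA9 OFF, and the other 18 did not. Such a fit leaves 1 library in a group, which is then assumed to vary like the other groups.

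Summed over the 43 genes, the level was 12028 and 11739 CPM in control, 11469 and 11919 CPM in CAF-1 OFF, and 7483 and 7674 CPM in HOXA9 OFF. The HOXA9 OFF libraries stood apart from the other 4, whereas the sums of CAF-1 OFF and control overlapped. The mean of HOXA9 OFF (7578 ± 135 CPM, SD, n = 2) was 0.638 times that of control (11884 ± 204 CPM, SD, n = 2). The exact two-sided permutation test gave p = 0.333, the smallest that 2 libraries against 2 allow. For CAF-1 OFF (11694 ± 318 CPM, SD, n = 2) the same exact permutation test gave p = 0.667. The median over the 43 genes of log2 CPM, less the control mean, was -0.101 and -0.0683 in the CAF-1 OFF libraries. In the controls it was -0.00366 and 0.00366, and this difference was not tested. As a share of all gene counts, the 43 genes took between 1.16% and 1.22% in control and CAF-1 OFF, and 0.714% and 0.747% in HOXA9 OFF. In these bulk samples, fewer cells of a type and less RNA per cell cannot be told apart.

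Other markers moved in the same comparison. All 8 tested markers of maturing neutrophils or monocytes rose in HOXA9 OFF, where 13% of all genes rose. The list of 9 that holds them had sums from 993 to 1331 CPM in HOXA9 OFF. In control the sums were from 25.1 to 35.4 CPM and in CAF-1 OFF from 57.1 to 65.4 CPM. The ninth, Lyz2, had 0 counts in control and CAF-1 OFF and at most 0.243 CPM in HOXA9 OFF. The Lys-GFP reporter is driven by the lysozyme promoter, and its effect on the Lyz2 counts was not tested. Of 8 progenitor markers, 5 fell (Kit, Cd34, Flt3, Myb and Ctsg), where 8.97% of all genes fell. The other 3, the granule protein genes Mpo, Elane and Prtn3, were not called and had log2 fold changes of 0.53, 0.76 and 0.59. Summed over the 8, the level was 15264 and 12174 CPM in control, and 14947 and 11952 CPM in HOXA9 OFF, so that these groups overlapped. Of 8 genes of dividing cells, among them Mki67, Top2a and Ccnb1, none was called in either direction. Their log2 fold changes were below 0 in 7 of 8, with Mcm2 lower at an FDR under 0.05 but by less than 1.5-fold (-0.37 ± 0.09), and Mki67 was at 0.74 ± 0.25. In 5 of the 8 both HOXA9 OFF libraries lay below both controls, against 35.9% of all genes. Their sum lay between 2865 and 3098 CPM in HOXA9 OFF, between 2929 and 3164 CPM in control, and between 3008 and 3364 CPM in CAF-1 OFF. The part of maturation in the decline of the ribosome biogenesis genes was not tested.

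**Figure D1:**
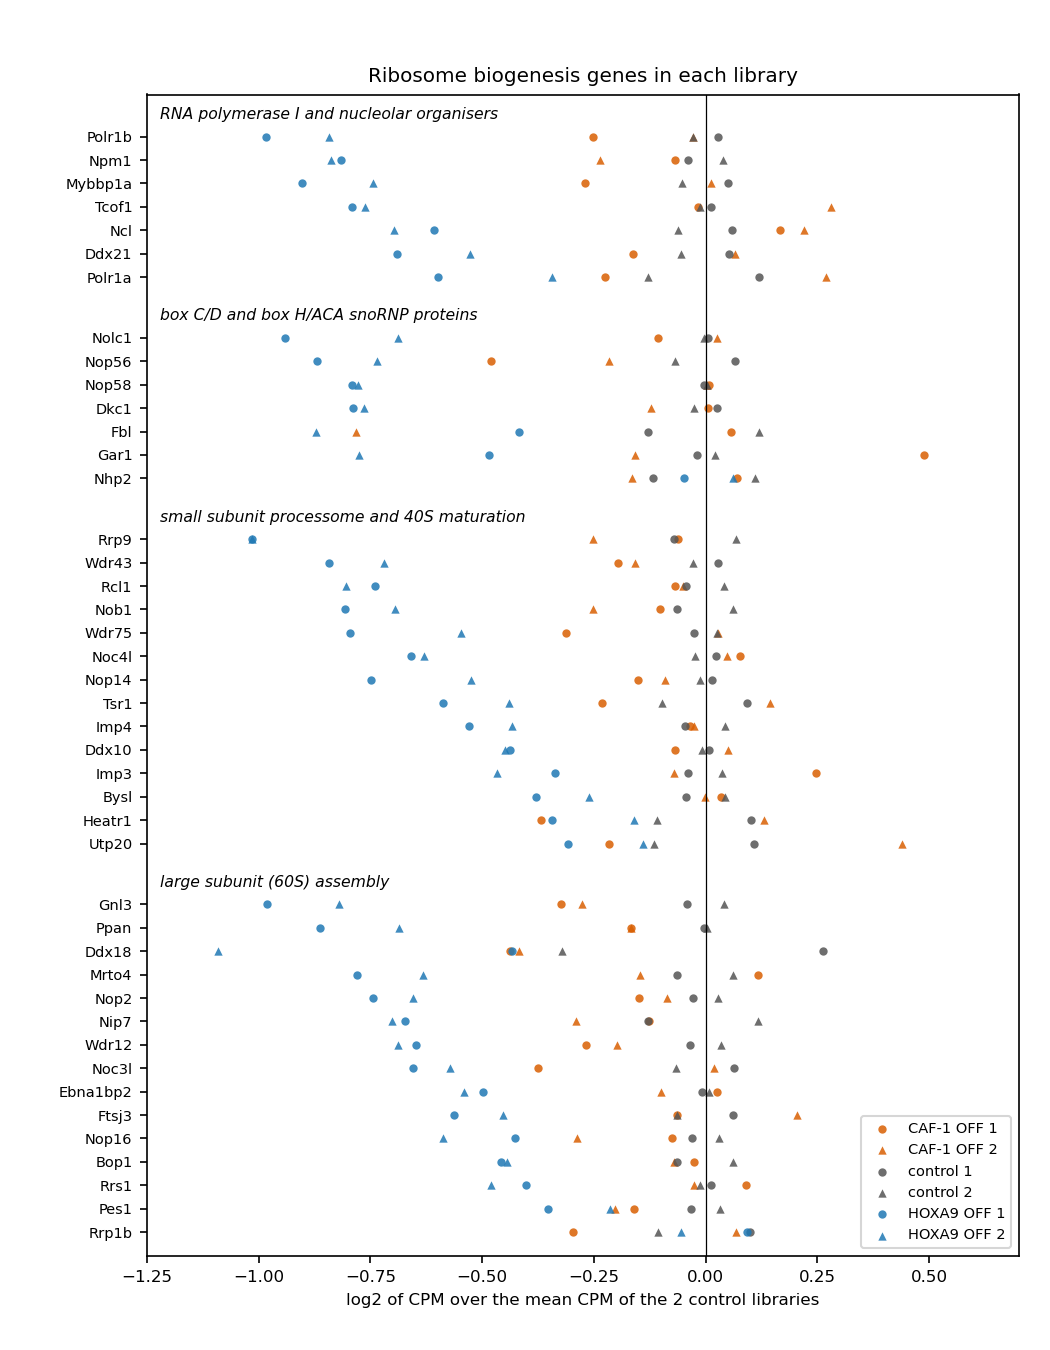
Each row is 1 of the 43 ribosome biogenesis genes, ordered by role and then by log2 fold change in HOXA9 OFF, and each point is 1 library, placed by the log2 of its CPM over the mean of the 2 controls (x axis). The blue HOXA9 OFF points lie to the left of both grey controls in 41 of 43 rows, while the orange CAF-1 OFF points scatter about the controls.

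Of the genes for RNA polymerase I and the proteins that organise the nucleolus, 6 of 7 fell in HOXA9 OFF, against 8.97% of all genes. The median log2 fold change of the 7 was -0.78. Polr1b, the second-largest subunit of RNA polymerase I (chr2:128926731-128952330, plus strand, mm9), had 121 and 116 CPM in control, 99.6 and 116 CPM in CAF-1 OFF, and 59.9 and 66.1 CPM in HOXA9 OFF. The HOXA9 OFF libraries were below all others, with a log2 fold change against control of -0.91 ± 0.12 (SE, FDR 0.00273 by edgeR). Npm1, the nucleolar chaperone nucleophosmin (chr11:33052287-33063206, minus strand), had the highest level per kilobase of exon of the 43, 419.6 CPM per kb in control. Its libraries stood at 1089 and 1148 CPM in control, 1067 and 949.9 CPM in CAF-1 OFF, and 635 and 625 CPM in HOXA9 OFF, a log2 fold change of -0.83 ± 0.10. Near-identical copies elsewhere in the genome covered 78.5% of its transcript, and reads that align to several places were not counted, so its level is uncertain. Ncl, which encodes nucleolin, was the gene with the most counts on the list, at 2553 and 2349 CPM in control, 2750.3 and 2856 CPM in CAF-1 OFF, and 1607 and 1511 CPM in HOXA9 OFF. Its HOXA9 OFF libraries were the lowest and its CAF-1 OFF libraries the highest. Tcof1 (treacle), Mybbp1a and Ddx21, a nucleolar RNA helicase, fell too, by 0.78, 0.82 and 0.61 on the log2 scale. Polr1a, the largest polymerase subunit, did not pass the test, with a log2 fold change of -0.47 ± 0.19 (FDR 0.108 by edgeR).

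Box C/D and box H/ACA snoRNPs carry out methylation and pseudouridylation of ribosomal RNA. Of their proteins, 4 of 7 fell in HOXA9 OFF, against 8.97% of all genes. The median log2 fold change of the 7 was -0.78. Nolc1, a chaperone of both kinds of particle (chr19:46150353-46160018, plus strand), stood at 649.7 and 646 CPM in control, 602 and 659 CPM in CAF-1 OFF, and 337 and 402 CPM in HOXA9 OFF, with a log2 fold change of -0.81 ± 0.12. Nop58, a core box C/D protein with the highest level of this group per kilobase (188 CPM per kb in control), had 484 and 487 CPM in control, 488 and 486 CPM in CAF-1 OFF, and 280.4 and 283 CPM in HOXA9 OFF. The control and CAF-1 OFF libraries overlapped in this gene, and the fall in HOXA9 OFF was -0.78 ± 0.09 (log2 fold change, SE). Nop56, the partner of Nop58, and Dkc1, the pseudouridine synthase dyskerin, fell by 0.80 and 0.78 on the log2 scale. Near-identical copies covered 43.7% of the Nop56 transcript, and its counts are uncertain. Gar1 and Nhp2 belong to the same H/ACA particle as Dkc1 and gave other values. Gar1 stood at 105 and 108 CPM in control, 149 and 95.1 CPM in CAF-1 OFF, and 75.8 and 62.0 CPM in HOXA9 OFF, and its log2 fold change of -0.62 ± 0.21 missed the threshold (FDR 0.0696 by edgeR). Nhp2 stood at 183 and 214 CPM in control, 208 and 177 CPM in CAF-1 OFF, and 192 and 207 CPM in HOXA9 OFF. Its groups overlapped, and its log2 fold change was 0.01 ± 0.13, or -0.07 when only the library size was used for scaling. Fbl, the box C/D methyltransferase fibrillarin, was the least abundant of the 43, at 18.9 and 22.4 CPM in control, 21.5 and 12 CPM in CAF-1 OFF, and 15.4 and 11.3 CPM in HOXA9 OFF. It was not called (log2 fold change -0.62 ± 0.30), and a near-identical copy elsewhere covered 100% of its transcript, so its counts are uncertain.

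In the group of the small subunit processome and small subunit maturation, 7 of 14 fell in HOXA9 OFF, against 8.97% of all genes. The median log2 fold change of the 14 was -0.57. Rrp9, a protein of the U3 snoRNP that is needed for the first cuts of the precursor (chr9:106378294-106387755, plus strand), showed the largest decline of all 43. Its libraries stood at 103 and 113 CPM in control, 103 and 90.6 CPM in CAF-1 OFF, and 53.4 and 53.4 CPM in HOXA9 OFF, a log2 fold change of -1.01 ± 0.12 (FDR 0.00177 by edgeR). Exons of Rrp9 overlap those of Parp3 on the other strand, and whether the counting used strand was not stated. Wdr43, Rcl1, Nob1, Wdr75, Noc4l and Nop14, which are processome parts or later maturation factors, fell by 0.63 to 0.78 on the log2 scale. Imp3, another U3 snoRNP protein and the highest of this group per kilobase (108 CPM per kb in control), had 94.8 and 99.9 CPM in control, 116 and 92.7 CPM in CAF-1 OFF, and 77.1 and 70.4 CPM in HOXA9 OFF, and missed the threshold (log2 fold change -0.40 ± 0.13, FDR 0.0633 by edgeR). Imp4, Ddx10 and Tsr1 were lower at an FDR under 0.05 but by less than 1.5-fold. The 2 longest members of the group gave the smallest differences. Utp20 stood at 118 and 101 CPM in control, 93.9 and 148 CPM in CAF-1 OFF, and 88.1 and 99.1 CPM in HOXA9 OFF, with a log2 fold change of -0.22 ± 0.21, and for Heatr1 it was -0.25 ± 0.18.

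Of the large subunit assembly factors, 7 of 15 fell in HOXA9 OFF, against 8.97% of all genes. The median log2 fold change of the 15 was -0.61. Gnl3 (nucleostemin), a nucleolar GTPase known from stem and progenitor cells (chr14:31825620-31832275, minus strand), was the highest of this group per kilobase at 134 CPM per kb in control. It stood at 245 and 259 CPM in control, 201 and 208 CPM in CAF-1 OFF, and 128 and 143 CPM in HOXA9 OFF. The 3 groups did not overlap, and the log2 fold change in HOXA9 OFF was -0.90 ± 0.10 (FDR 0.00188 by edgeR). Ppan, Mrto4, Nop2, Nip7, Wdr12 and Noc3l fell by 0.61 to 0.77 on the log2 scale. Wdr12 forms a complex with Pes1 and Bop1 that is needed for maturation of the large subunit RNA. Of the other two, Bop1 was lower by less than 1.5-fold (log2 fold change -0.45 ± 0.10, FDR 0.0148 by edgeR) and Pes1 did not pass the test (-0.28 ± 0.10, FDR 0.0733 by edgeR). Near-identical copies covered 79.4% of the Mrto4 transcript, 72.3% of that of Pes1 and 42.2% of that of Wdr12, so their counts are uncertain. Rrp1b had 109 and 94.8 CPM in control, 83.1 and 107 CPM in CAF-1 OFF, and 109 and 98.2 CPM in HOXA9 OFF. Its groups overlapped, with a log2 fold change of 0.02 ± 0.15, or -0.06 when scaled by library size alone.

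**Figure D2:**
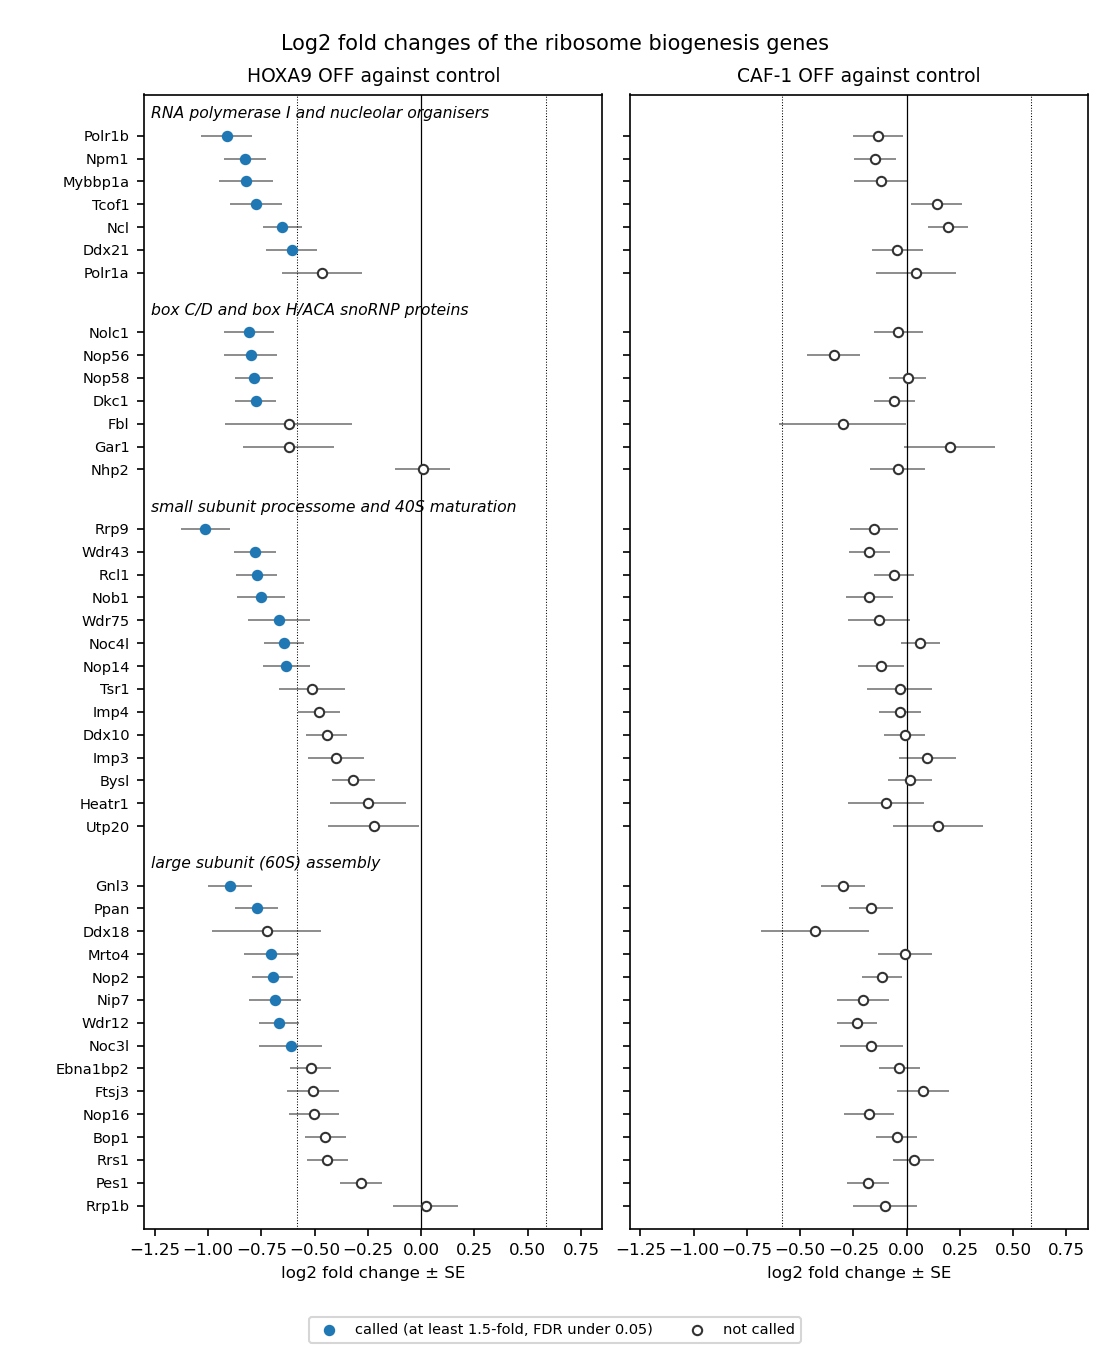
Log2 fold change (x axis) with its standard error for each of the 43 genes in HOXA9 OFF (left) and CAF-1 OFF (right), both against the same 2 control libraries, with filled points for called genes and dotted lines at 1.5-fold. On the left 24 points are filled, all below 0, and on the right none is filled and values run from -0.43 to 0.20.

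In CAF-1 OFF none of the 43 genes was called in either direction, by edgeR or by DESeq2, and 0.0321% of all genes were called. At an unadjusted p under 0.05, 3 genes were lower (Gnl3, Nop56 and Wdr12) and none higher, whereas 4.2% of all genes were lower and 6.48% higher at that level. The median log2 fold change was -0.06 (range -0.43 to 0.20), with 32 values below 0 and 11 above. Over all 12460 genes tested the median was -0.004, with 6321 values below 0 and 6132 above. In 13 of the 43 both CAF-1 OFF libraries lay below both controls, against 20% of all genes. In 2 (Ncl and Noc4l) both lay above, against 20.1% of all genes, and in 28 the groups overlapped, against 59.9%. By role, the summed level of the large subunit genes was 2310 and 2328 CPM in CAF-1 OFF, and 2518 and 2531 CPM in control. That of the snoRNP genes was 2041 and 2009 CPM in CAF-1 OFF, and 2106 and 2105 CPM in control. In these roles the groups did not overlap, and the exact permutation test gave p = 0.333, the smallest it allows. In the other roles the sums overlapped. At the ends of the range, several values differed between the 2 libraries of a group. Ddx18, a nucleolar helicase, had the lowest value, -0.43 ± 0.26 (log2 fold change, SE), with 75 and 76.1 CPM in CAF-1 OFF against 122 and 81.3 CPM in control. In HOXA9 OFF it stood at 75.3 and 47.7 CPM (log2 fold change -0.72 ± 0.26, not called), and near-identical copies covered 99.6% of its transcript. Nop56 followed at -0.34 ± 0.12, with 192 and 231 CPM against 280.3 and 255 CPM in control and 147 and 161 CPM in HOXA9 OFF. The values in CAF-1 OFF thus lay between those of the other groups in this gene, as in Gnl3, where the log2 fold change in CAF-1 OFF was -0.30 ± 0.10 (FDR 0.374 by edgeR). Fbl gave -0.30 ± 0.30 in CAF-1 OFF and turned to 0.08 without CAF-1 OFF replicate 2. At the other end stood Gar1 (0.20 ± 0.21), Ncl (0.19 ± 0.09) and Utp20 (0.15 ± 0.21). Gar1 turned to -0.16 without CAF-1 OFF replicate 1 and Utp20 to -0.20 without CAF-1 OFF replicate 2. Ncl was higher in both libraries of CAF-1 OFF than in both controls, but was not called (FDR 0.518 by edgeR).

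A direct comparison of CAF-1 OFF with HOXA9 OFF showed 16 of the 43 genes higher in CAF-1 OFF and none lower, where 9.56% of all genes were higher. With no minimum on the fold change 32 were higher, against 14.3% of all genes, and in 37 both CAF-1 OFF libraries lay above both HOXA9 OFF libraries, against 33% of all genes. The median log2 difference was 0.51. The largest was that of Tcof1, at 189 and 233 CPM in CAF-1 OFF and 111 and 113 CPM in HOXA9 OFF (log2 fold change 0.92 ± 0.12, FDR 0.0031 by edgeR), followed by Rrp9 (0.86 ± 0.11) and Ncl (0.85 ± 0.09). By role, 5 of 7 polymerase and nucleolar genes, 4 of 7 snoRNP genes, 4 of 14 small subunit genes and 3 of 15 large subunit genes were higher. Without HOXA9 OFF replicate 1 the count was 10 instead of 16. This comparison shares libraries with both of the others, so the 3 sets of counts are not independent of each other.

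To see whether the 43 genes stood for the pathway, 113 further genes of ribosome biogenesis were listed by function, of which 111 were tested. Both lists were drawn up with earlier results of these data known, so the second is not independent support for the first. In HOXA9 OFF 26 of the 111 fell and none rose, where 8.97% of all genes fell and 13% rose. With no minimum on the fold change 62 were lower at an FDR under 0.05, against 13.8% of all genes, and the median log2 fold change was -0.43. The median of the 43 was -0.64, a difference that was not tested. In CAF-1 OFF none of the 111 was called. At an unadjusted p under 0.05, 5 were lower and none higher, against 4.2% of all genes lower and 6.48% higher. The log2 fold changes of the 111 in CAF-1 OFF had a median of -0.09 and were below 0 in 86, against 6321 of all 12460 genes. In 46 of the 111 both CAF-1 OFF libraries lay below both controls, against 20% of all genes, and in 4 both lay above, against 20.1%. The summed level of the 111 was 12009 and 11999 CPM in CAF-1 OFF, and 12773 and 12715 CPM in control. These groups did not overlap, with a difference of -5.81%, and the exact permutation test gave p = 0.333, the smallest it allows. The 5 largest decreases in HOXA9 OFF included Ruvbl2 and Ruvbl1, a pair of ATPases that assemble snoRNPs among other complexes. They stood at -0.98 ± 0.10 and -0.83 ± 0.11 (log2 fold change, SE). Ruvbl2 stood at 355 and 383 CPM in control, 327 and 314 CPM in CAF-1 OFF, and 189.8 and 185 CPM in HOXA9 OFF. The others were Cirh1a, a processome protein (-0.88), Nop10, the fourth core protein of H/ACA particles (-0.83), and Nle1, a large subunit assembly factor (-0.83). By step, 4 of 8 snoRNP assembly genes, 6 of 13 RNA exosome genes and 9 of 41 large subunit genes fell in HOXA9 OFF. So did 6 of 37 small subunit genes and 1 of 12 RNA polymerase I genes, the last a share no higher than the 8.97% over all genes. Of 79 genes for protein components of the finished cytoplasmic ribosome, 3 fell in HOXA9 OFF (Rpl12, Rpl27 and Rpl28) and none rose. Over all genes 8.97% fell. The median log2 fold change of the 79 was -0.27, and the difference from the 43 was not tested. Many ribosomal protein genes have near-identical copies in the genome, and their counts are uncertain for that reason.

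**Figure D3:**
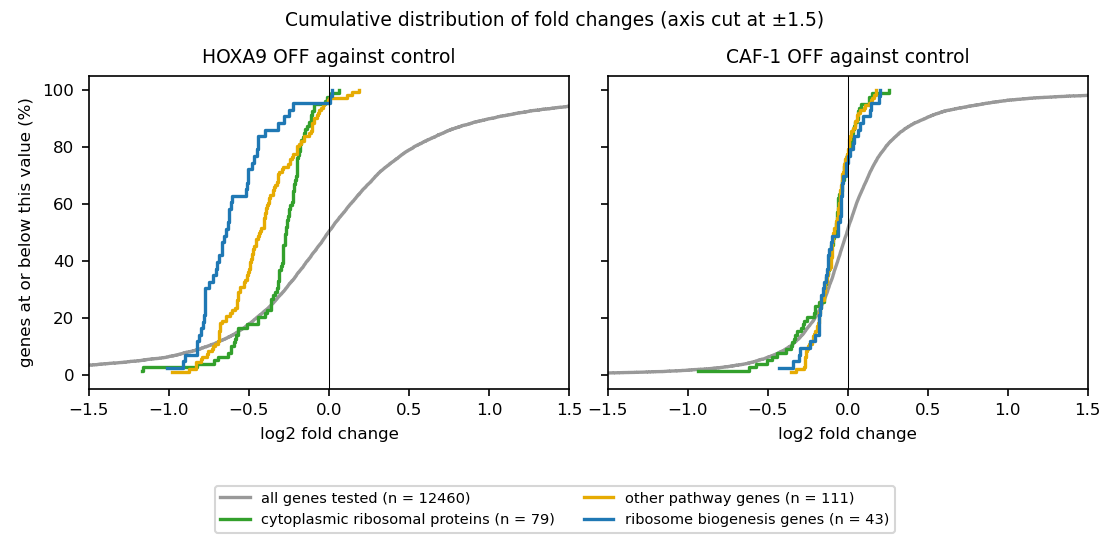
Cumulative share of genes (y axis, percent) at or below each log2 fold change (x axis, shown up to 1.5 on either side of 0) for HOXA9 OFF (left) and CAF-1 OFF (right) against the same controls. On the left the curve of the 43 genes lies farthest to the left at its median (-0.64), followed by the 111 other pathway genes (-0.43), the 79 ribosomal proteins (-0.27) and all genes (0.00), and on the right the medians are -0.06, -0.09, -0.08 and 0.00.

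MYC drives many genes of this pathway in other systems as a dimer with MAX, and the MXD proteins and MNT also pair with MAX and oppose MYC. Myc stood at 582 and 550 CPM in control, 532 and 506 CPM in CAF-1 OFF, and 306 and 296 CPM in HOXA9 OFF. It fell in HOXA9 OFF, with a log2 fold change of -0.91 ± 0.09 (FDR 0.00139 by edgeR), and was -0.12 ± 0.09 in CAF-1 OFF (FDR 0.694). Mycn was far lower, with 24 and 18 counts in control, 151 and 46 in CAF-1 OFF, and 3 and 0 in HOXA9 OFF. It was called lower in HOXA9 OFF (FDR 0.0433 by edgeR), though 3 counts is the limit below which a level cannot be told from 0 here, and no fold change is given. Mlx, a MAX-like partner, rose from 57.8 and 59.6 CPM in control to 105 and 122 CPM in HOXA9 OFF (log2 fold change 0.95 ± 0.11), with 54.8 and 58.1 CPM in CAF-1 OFF. Mxd4 rose from 116 and 175 to 239 and 283 CPM in HOXA9 OFF, with 113 and 97.7 CPM in CAF-1 OFF, and its 2 controls lay far apart. Mxd1 had 31.4 and 28.7 CPM in control, 46.0 and 42.5 CPM in CAF-1 OFF, and 46.7 and 46.4 CPM in HOXA9 OFF. It rose in HOXA9 OFF (0.63 ± 0.11, FDR 0.00837 by edgeR), and in CAF-1 OFF its value was 0.56 ± 0.11 with an FDR of 0.193. Max, Mxd3, Mxi1 and Mnt were not called in HOXA9 OFF, with log2 fold changes of -0.02, 0.04, 0.32 and 0.33, and the sign for Max and Mxd3 depended on the scaling or the libraries used. Mycl1 had 0 counts in every library and was not tested. The part of Myc or the other genes of this network in the levels of the ribosome biogenesis genes was not tested.

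**Figure D4:**
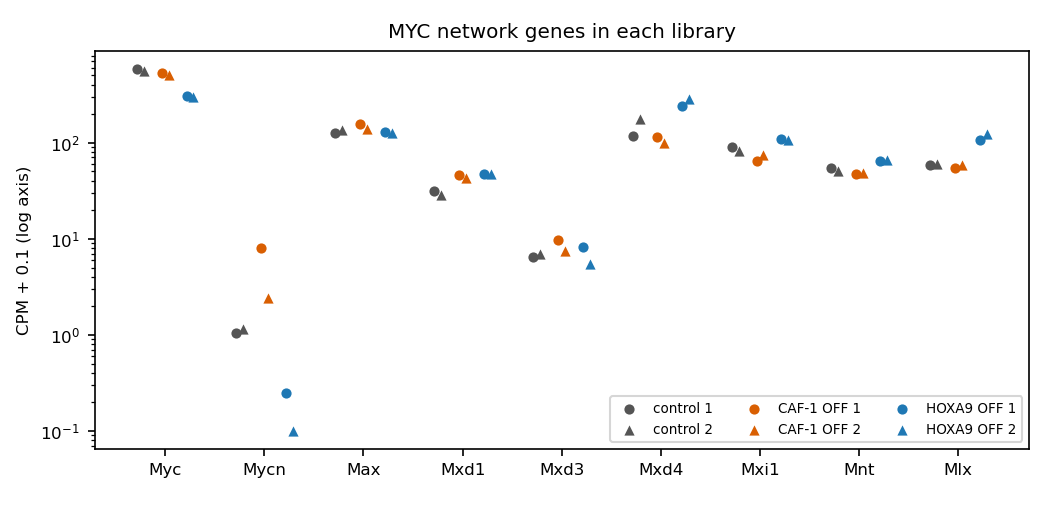
CPM plus 0.1 on a log axis (y) for the 9 tested genes of the MYC network (x), with 1 point per library, coloured by group. Myc is lowest in the 2 HOXA9 OFF libraries (306 and 296 CPM), Mlx and Mxd4 are highest there, and Mxd1 is above control in both HOXA9 OFF and CAF-1 OFF.

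Promoter sequence was searched for the E-box CACGTG, the form that MYC and MAX bind, and for CCGGAAG, a core motif of ETS factors, on both strands. RefSeq windows of 250 bases before to 50 bases after the gene start were found for 38 of the 43 genes, in 41 windows (GRCm38.p6, a later build than that of the counts). The E-box was in 7 of the 41 windows (17.1%), in 7.15% of all windows of that length and in 10% of those of tested genes. The ETS motif was in 11 of 41 (26.8%), in 8.86% of all windows and in 17.5% of those of tested genes. In HOXA9 OFF, 3 of the 7 genes with the E-box fell (median log2 fold change -0.51, range -0.82 to -0.22). Of the 31 with a window but no E-box, 19 fell (median -0.65, range -1.01 to 0.02). Over all genes 8.97% fell. A link between the motif and the decline was not tested. Of the 7, the E-box lies before the gene start in Imp4 and Nop2 and after it in Mybbp1a, Pes1, Tsr1, Utp20 and Wdr43. The 4 with the lowest log2 fold changes in HOXA9 OFF are shown, 5′ to 3′ on the strand of the gene, with the E-box in capitals, to show how its flanks differ.
Mybbp1a: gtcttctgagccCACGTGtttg
Wdr43: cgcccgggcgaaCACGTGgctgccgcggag
Nop2: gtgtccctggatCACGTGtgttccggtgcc
Tsr1: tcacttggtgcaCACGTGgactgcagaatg
All 4 genes are on the plus strand, and the stretches are chr11:72441355-72441376, chr17:71616220-71616249, chr6:125131811-125131840 and chr11:74898092-74898121 of GRCm38.p6. The log2 fold changes in HOXA9 OFF were -0.82 for Mybbp1a, -0.78 for Wdr43, -0.70 for Nop2 and -0.51 for Tsr1, and the first 3 were called. A match is a description of the letters and does not show that MYC is bound. The windows held a median of 21 CpG dinucleotides, against 20 for tested genes and 7 for all windows.

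The 43 genes lie on 18 chromosomes. A feature not used to list them is that several host small nucleolar RNAs in their introns or exons. In the GENCODE annotation of the build of the counts, 8 of the 43 (18.6%) contain at least 1 snoRNA on the same strand, 22 snoRNAs in all, whereas 239 of 12390 tested genes with an annotation (1.93%) do. The hosts were Dkc1, Gnl3, Ncl, Nop56, Nop58, Ppan, Tsr1 and Wdr43, with a median log2 fold change of -0.78 in HOXA9 OFF. Of these hosts 7 fell there, where 24 of the 43 and 8.97% of all genes fell. Exons of Nop56 and Ppan overlap those of snoRNAs on the same strand, and exons of 13 of the 43 overlap another gene on the other strand. How such reads were counted was not stated.

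The difference between the 2 libraries of a group went with gene length over the list. Its part in the values of single genes was not tested. The difference of replicate 1 minus replicate 2 in log2 CPM followed exon length over the 43 genes with Spearman's rho of -0.748 in CAF-1 OFF, 0.607 in control and -0.42 in HOXA9 OFF. These are correlations across genes of the same 2 libraries, given as a description, and over all genes they were -0.406, 0.218 and -0.0748. Long genes such as Utp20 and Heatr1 were higher in CAF-1 OFF replicate 2, and short genes such as Gar1 and Imp3 were higher in CAF-1 OFF replicate 1. The log2 fold change of HOXA9 OFF against control had a rho of 0.00906 with exon length over the 43. After the trend over length was removed from each library, 24 genes fell in HOXA9 OFF and none was called in CAF-1 OFF, as before.

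**Figure D5:**
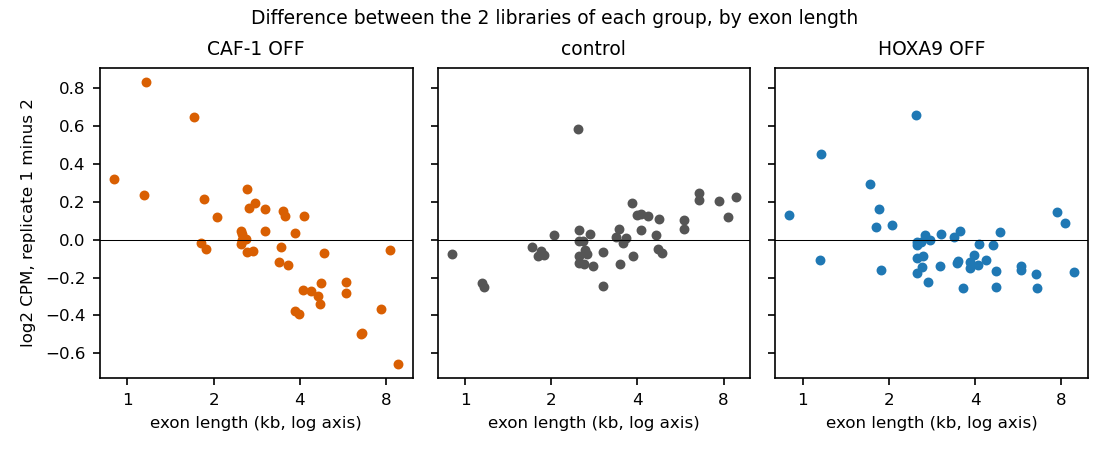
Difference in log2 CPM between replicate 1 and replicate 2 (y axis) against exon length in kilobases (x axis, log scale) for the 43 genes, 1 panel per group. Points slope down in CAF-1 OFF (rho -0.748), up in control (rho 0.607) and weakly down in HOXA9 OFF (rho -0.42).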

How the data were processed

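RNA was measured by bulk RNA-seq in 6 libraries. The authors aligned reads to mouse mm9 with STAR and deposited raw read counts per gene from HTSeq-count, with no normalization. The annotation, strand setting and overlap mode were not stated, and the tally lines for unassigned reads were kept out of the gene counts. The members and gene lists were chosen with earlier results of these data known. The rule for named genes gave per-library values to the 3 largest and 3 smallest log2 fold changes in each comparison with control, and in each role to the most abundant gene per kilobase and the largest change. Direct-comparison values, called markers and ribosomal proteins were named after their values were seen.

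edgeR 4.0.16 (R 4.3.3) was used with filterByExpr, trimmed mean of M-values scaling and a quasi-likelihood fit of 1 mean per group over all 6 libraries, with Benjamini-Hochberg adjustment over 12460 genes. Standard errors came from the F statistic. The fit was also run on simulated counts with known changes, and the outcome is not given here. Alternatives (15 planned, 2 added after the data were seen) included DESeq2 1.42.0. Gene coordinates are 1-based from GENCODE on NCBIM37, the assembly named mm9. A near-identical copy is an alignment elsewhere of at least 200 bases at 95% identity. A floor of 3 counts corresponded to 0.119 to 0.179 CPM and covers counting error only.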

Additional observations from a re-analysis of the deposited data

How the results depend on the processing

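No ribosome biogenesis gene and no other pathway gene was called in CAF-1 OFF against control under any alternative run. Called genes among the 43 in HOXA9 OFF numbered 19 to 25 when a library was left out, 30 with library size alone and 1 at 2-fold with FDR under 0.01. For other pathway genes in HOXA9 OFF the strict cutoff left 0, and 62 passed an FDR under 0.05 with no fold minimum. In CAF-1 OFF against HOXA9 OFF, called members numbered 10 to 23 without 1 library, 0 at the strict cutoff and 32 with no fold minimum, and other pathway genes 30 with library size alone, 0 and 50. The median log2 fold change of the 43 in HOXA9 OFF was -0.72 with library size alone and -0.65 to -0.63 without 1 library. In CAF-1 OFF it was -0.0856 to -0.0527 without 1 library. In CAF-1 OFF against HOXA9 OFF it was 0.59 with library size alone, 0.53 with only the 4 libraries compared, 0.56 with the length trend removed and 0.52 to 0.63 without 1 library. Library size alone shifted the median of all genes in HOXA9 OFF by -0.08 and gave differences in summed CPM of -4809.6 (HOXA9 OFF against control) and 4587 (CAF-1 OFF against HOXA9 OFF).

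In HOXA9 OFF, Nhp2 changed sign with library size alone (-0.0733) and ranged from -0.11 to 0.13 without 1 library, Rrp1b with library size alone (-0.0607) and with the length trend removed (-0.0899) and ranged from -0.0778 to 0.12, Max with the length trend removed (0.0257) and ranged from -0.0818 to 0.0321, and Mxd3 with library size alone (-0.0478) and ranged from -0.30 to 0.30. In CAF-1 OFF against control without 1 library, Gar1 ranged from -0.16 to 0.51, Utp20 from -0.20 to 0.43 and Fbl from -0.78 to 0.0750. The cause was not tested.

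The labels do not say that a replicate number marks a shared culture or batch, and the check for pairing was mixed. Deviations of libraries with the same number correlated over all genes at -0.178 (CAF-1 OFF and control), 0.0329 (CAF-1 OFF and HOXA9 OFF) and 0.456 (control and HOXA9 OFF), and over the 43 at -0.628, 0.551 and 0.116, so the numbers were not treated as pairs. With a replicate block, 26 members fell in HOXA9 OFF, 0 were called in CAF-1 OFF and 16 differed between CAF-1 OFF and HOXA9 OFF. With the numbers of CAF-1 OFF crossed, these were 25, 0 and 16. Summed CPM in CAF-1 OFF against control was 35.5 higher without CAF-1 OFF replicate 1 and 414 lower without CAF-1 OFF replicate 2, with no test.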
